A study of Arabidopsis thaliana with 6 samples.

Results

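The genes described here are AT5G51440, which encodes a mitochondrial small heat shock protein, and AT5G37670, which encodes a peroxisomal one. They were chosen by locus, with earlier results of these data known, and each had 1 probe set that names it alone. They are 2 of the 13286 genes with such a probe set on the array.

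Small heat shock proteins are chaperones that need no ATP. They bind proteins that have begun to unfold and hold them until the HSP70 system can refold them. Plants make forms for the cytosol and separate forms for organelles, most of them after heat, and several also in maturing seeds without any heat. In germinating oilseeds the peroxisomes oxidise stored fatty acids and the mitochondria use the products, so chaperones of both compartments are of interest in seeds with a changed peroxisomal metabolism.

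RNA of whole Arabidopsis thaliana seeds was hybridised to ATH1 arrays, whose probe sets each summarise several short probes of a transcript as 1 signal. There were 3 arrays of the pmdh1 pmdh2 double mutant, which carries T-DNA insertions in AT2G22780 and AT5G09660, the genes of peroxisomal malate dehydrogenase. A further 3 arrays came from wild-type (Col-0) plants that segregated from a T-DNA heterozygote. All seeds were stratified for 2 days at 4 °C, grown at 22 °C in continuous light on agar with 1% sucrose, and taken at growth stage 0.7. The comparison asks how transcripts differ in germinating seeds without peroxisomal malate dehydrogenase, the enzyme that lets peroxisomes reoxidise the NADH formed by fatty acid beta-oxidation.

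No probe set used here names AT2G22780 or AT5G09660, so the genotype labels were not checked against the disrupted genes. The labels do not say whether replicates came from separate plants or seed batches, so the p-values describe the spread among these samples, part of which may be technical. The number of arrays limits the precision. Median log2 values were 5.57 to 5.61 in mutant arrays and 5.46 to 5.54 in wild-type arrays. Every mutant median lay above every wild-type median, and the group means of the medians differed by 0.088. This shift goes with the genotype, and its cause was not tested. For actin, the 3′ over 5′ control ratio (log2), a sign of RNA degradation, was 0.534 to 0.693 in mutant arrays and 0.566 to 0.813 in wild-type arrays, which overlap. For GAPDH it was −0.196 to −0.071 in mutant arrays and −0.172 to 0.035 in wild-type arrays, which overlap as well. ICL, the isocitrate lyase gene of the glyoxylate cycle, had signals of 4183 to 4370 in mutant arrays and 3891 to 4796 in wild-type arrays. These overlap, but ICL alone does not show that both groups were at the labelled stage. Late seed genes, described below, differed between the groups, and whether the stages matched was not tested.

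The transcript of the mitochondrial protein gene AT5G51440 was lower in the double mutant. Its signals were 72.4, 78.4 and 77.1 in mutant replicates 1, 2 and 3, against 109.4, 128.3 and 128.4 in wild-type replicates 1, 2 and 3. Every mutant array lay below every wild-type array, and the mutant arrays stood close together. The signal averaged 75.9 ± 3.14 in the mutant and 122.0 ± 11.0 in the wild type (SD, n = 3 each). The log2 fold change, mutant minus wild type on the log2(signal + 10) scale, was −0.62 (SE 0.13, 95% interval −0.89 to −0.35), or 1.53-fold lower, with an adjusted p = 0.0114 by limma's moderated test over all 13648 probe sets bright enough to be tested. The added 10 is a pseudocount that damps noise near background and understates folds. The ratio of the mean signals, wild type over mutant, was 1.61. In that fit 3.78% of probe sets passed an adjusted p under 0.05, and 1.82% passed and were lower in the mutant. Groups lay apart with the mutant lower for 8.80% of the probe sets. Of all probe sets tested, 156 (1.14%) had a more negative log2 fold change than AT5G51440. The call was lost without mutant replicate 1 (−0.59, adjusted p = 0.0561) and without wild-type replicate 3 (−0.58, adjusted p = 0.0583). Because whole seeds were profiled, fewer cells with the transcript and less transcript per cell cannot be told apart.

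**Figure D1:**
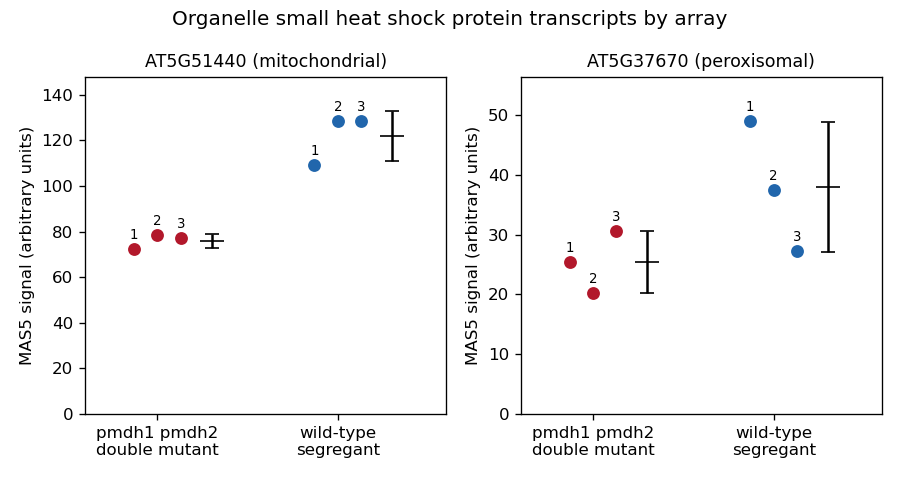
MAS5 signal (arbitrary units, linear axis from 0) of AT5G51440 and AT5G37670 on each array, mutant on the left of each panel and wild type on the right. Numbers are replicates, and bars give the mean and SD of 3 arrays. The mutant arrays of AT5G51440 (72.4 to 78.4) lie below all wild-type arrays (109.4 to 128.4), whereas for AT5G37670 mutant replicate 3 (30.6) lies above wild-type replicate 3 (27.3).

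The peroxisomal protein gene AT5G37670 did not pass the test. Its signals were 25.5, 20.3 and 30.6 in mutant replicates 1, 2 and 3, against 49.0, 37.5 and 27.3 in wild-type replicates 1, 2 and 3. The groups overlapped, since wild-type replicate 3 lay below mutant replicate 3, while wild-type replicates 1 and 2 exceeded all mutant arrays. The signal averaged 25.5 ± 5.15 in the mutant and 37.9 ± 10.8 in the wild type (SD, n = 3 each). The log2 fold change was −0.42 (SE 0.20, 95% interval −0.84 to −0.0025), with an unadjusted p = 0.0488 and a limma adjusted p = 0.286. Relative spread was wider than for the mitochondrial gene. Its coefficient of variation was 20.2% in mutant and 28.6% in wild-type arrays. That of AT5G51440 was 4.14% in mutant and 8.98% in wild-type arrays. No signal of either gene lay under the pseudocount. The log2 fold change of AT5G37670 was −0.26 without wild-type replicate 1, the array with its highest signal, and −0.59 without wild-type replicate 3, and it did not pass in either case.

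The changes of the mitochondrial and the peroxisomal gene were not shown to differ. The difference between their log2 fold changes was −0.20, with an exact two-sided permutation p = 0.7 over the 6 arrays, in a design that cannot go below 0.1. That p does not show that they changed alike, since the interval of AT5G37670 alone runs from nearly 0 to −0.84.

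Among protein-coding genes beside the members in the TAIR10.1 annotation, only ARLA1A, which lies next to AT5G37670 and encodes an ADP-ribosylation factor-like protein, had a probe set of its own name. Its signals were 89.8, 115.8 and 72.9 in the mutant, against 89.5, 96.8 and 98.4 in the wild type, and its log2 fold change was −0.05 (limma adjusted p = 0.91).

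Other small heat shock protein genes were followed in a list of 19 that includes both members. It was chosen with earlier results of these data known, so its counts are no independent evidence. A probe set named 10 of the 19, and 6 were bright enough to be tested. Of these 6, 2 were lower in the mutant (AT5G51440 and AT4G21870), 0 were higher and 4 did not pass, where 1.82% of all probe sets tested were called lower and 1.96% higher. The count lower was 1 when mutant replicate 1 or wild-type replicate 3 was left out. Fold changes were negative for 5 of the 6. Groups lay apart with the mutant lower for 4 of the 6, against the 8.80% of all probe sets. The median log2 fold change of the 6 was −0.49, against 0.05 for all 13648 probe sets tested, of which 40.6% had a negative value. AT4G21870 had signals of 181.4, 168.6 and 169.2 in the mutant, against 267.5, 276.6 and 242.3 in the wild type. Its groups lay apart, and its log2 fold change of −0.57 (SE 0.11, limma adjusted p = 0.00942) was close in size to that of AT5G51440.

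Of the others tested, AT1G54050 had signals of 22.3, 17.8 and 32.1 in the mutant, against 45.5, 32.8 and 41.1 in the wild type. Its groups did not overlap, but it did not pass (−0.56, SE 0.19, limma adjusted p = 0.127). AT2G19310 had signals of 42.0, 36.0 and 41.5 in the mutant, against 58.6, 56.1 and 51.5 in the wild type. Its groups lay apart as well and it did not pass (−0.39, SE 0.15, adjusted p = 0.165). AT2G29500 was the 1 tested member with a positive value. It had signals of 66.9, 61.5 and 48.4 in the mutant, against 58.2, 46.8 and 41.7 in the wild type, with a change of 0.23 (SE 0.16, adjusted p = 0.506).

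The other 4 listed genes with a named probe set were too dim to be tested. ATHSP22.0, whose product is a small heat shock protein of the endoplasmic reticulum, had signals of 20.6, 2.41 and 9.79 in the mutant, against 13.8, 5.49 and 2.22 in the wild type. AT1G52560 had signals of 4.46, 12.0 and 0.412 in the mutant, against 1.32, 0.376 and 0.480 in the wild type. Signals of AT1G53540 ran from 8.62 to 16.4 in the mutant and from 5.76 to 9.41 in the wild type, and those of AT5G47600 from 19.5 to 26.9 in the mutant and from 19.7 to 23.1 in the wild type. The groups of all 4 overlapped. Their untested log2 fold changes were all positive, at 0.25 for ATHSP22.0, 0.48 for AT1G52560, 0.35 for AT1G53540 and 0.02 for AT5G47600. With these 4 included the median of the 10 was −0.19. The compartments of the products of AT1G52560, AT1G53540 and AT5G47600 are not given here, and a further organelle form may be among them. The remaining 9 listed genes, including the plastid form and other forms listed for mitochondria and peroxisomes, were not analysed here.

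**Figure D2:**
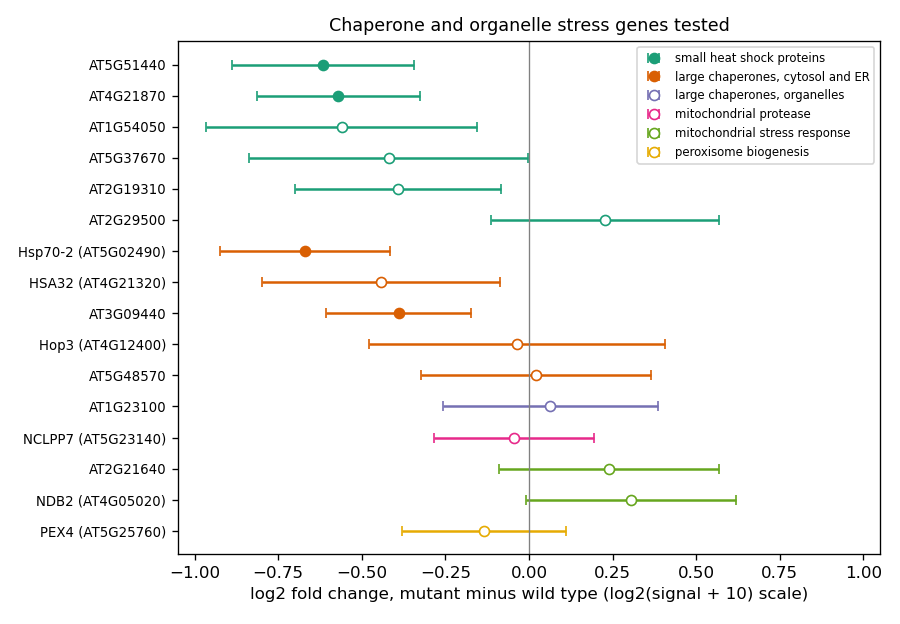
Log2 fold change (mutant minus wild type, log2(signal + 10) scale) with its 95% interval for each tested gene of the chaperone and organelle lists, coloured by list. Filled points passed an adjusted p under 0.05 and open points did not. The filled points are AT5G51440, AT4G21870, Hsp70-2 and AT3G09440, all negative, and the genes of mitochondrial stress sit to the right of 0.

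HSP70 proteins of the cytosol refold the proteins that small heat shock proteins hold. Of 18 listed large chaperone and helper genes of the cytosol and endoplasmic reticulum 5 were tested, of which 2 were lower, 0 were higher and 3 did not pass, against 1.82% lower and 1.96% higher among all probe sets tested. Hsp70-2 (AT5G02490) had signals of 220.6, 239.7 and 247.7 in the mutant, against 338.2, 431.2 and 379.4 in the wild type. Its groups lay apart and the mutant was 1.59-fold lower, at a log2 fold change of −0.67 (SE 0.12, limma adjusted p = 0.00391). AT3G09440, listed as another HSP70 gene, had signals of 662.9, 670.2 and 686.0 in the mutant, against 795.3, 952.7 and 915.2 in the wild type. It was lower by a smaller amount (−0.39, SE 0.10, adjusted p = 0.0457). That call is near the threshold and was lost under quantile normalization, when dim probe sets were kept, without the trend of variance with intensity, when only probe sets naming 1 gene were fitted, and in 5 of the 6 fits that left out an array, the exception being wild-type replicate 1. HSP70 genes are similar in sequence, and how far their probes tell them apart was not tested.

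HSA32, a gene of prolonged heat tolerance, had signals of 22.1, 24.3 and 29.9 in the mutant, against 35.1, 40.7 and 38.2 in the wild type. The groups lay apart and it did not pass (−0.44, SE 0.17, adjusted p = 0.174). Hop3, a helper that links HSP70 and HSP90, was at −0.04 (SE 0.21, adjusted p = 0.952), with overlapping groups. The last of the 5, AT5G48570, a heat-induced peptidyl-prolyl isomerase gene also known as ROF2, is named outside the naming rule after its value was seen. It was at 0.02 (SE 0.16, adjusted p = 0.966).

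Few other listed genes of the members' organelles had a probe set naming 1 gene, and none of those passed. They were 1 of 16 large chaperone genes of mitochondria and plastids and 1 of 9 genes of mitochondrial protein quality control. A further 2 of 8 mitochondrial stress genes and 1 of 21 peroxisome genes had one. The rest were not analysed here. NCLPP7, the nuclear gene of the mitochondrial Clp protease subunit, had signals of 283.0 to 313.5 in mutant arrays and 283.4 to 331.0 in wild-type arrays (log2 fold change −0.04, SE 0.11, limma adjusted p = 0.889). AT1G23100, listed with the small cochaperonins of organelles, was at 0.06 (SE 0.15, adjusted p = 0.877). NDB2, an alternative NAD(P)H dehydrogenase gene that responds to mitochondrial disturbance, had signals of 171.5, 246.1 and 168.6 in the mutant, against 140.3, 151.0 and 171.8 in the wild type. Its change was 0.31 (SE 0.15, adjusted p = 0.304), and that of AT2G21640, listed with it as a mitochondrial stress gene, was 0.24 (SE 0.15, adjusted p = 0.458). Both are positive where AT5G51440 is negative, and the difference was not tested. PEX4, which encodes a ubiquitin-conjugating enzyme of the peroxisome membrane, was at −0.13 (SE 0.11, adjusted p = 0.597). Heat shock factors, which switch on small heat shock protein genes, had 0 of 22 listed genes with a named probe set and were not analysed here.

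Most of the tested genes listed for late seed maturation and for the low oxygen response had larger changes than the members. Of 29 late seed genes listed 9 were tested, of which 8 were higher in the mutant, against 1.96% of all probe sets, and 1 did not pass, with a median log2 fold change of 2.30. The mean log2 value of the 9 was 6.91 to 7.17 in mutant arrays and 4.52 to 5.28 in wild-type arrays. M17, a late embryogenesis gene, showed the widest gap (3.69), with all wild-type signals under the pseudocount, so the size of its fold depends on that constant. PAP85, a storage protein gene, LEA18 and AtLEA4-1 were at 3.26, 2.64 and 2.35, with limma adjusted p-values of 1.64e-08, 3.58e-06 and 2.14e-07. The gene that did not pass was OLEO3, an oleosin gene, at −0.30. Of 29 low oxygen genes listed 13 were tested; 11 of them were lower in the mutant, against 1.82% of all probe sets, and 2 did not pass, with a median of −1.98. The mean log2 value of the 13 was 6.13 to 6.62 in mutant arrays and 7.92 to 8.16 in wild-type arrays. AT3G10040, known as HRA1, AT1G33055, AT5G66985 and AT3G27220 were at −2.49, −2.43, −2.19 and −2.17. PDC2, a pyruvate decarboxylase gene of fermentation, and AT1G19530 did not pass, at −0.29 and 0.36. OLEO3, PDC2 and AT1G19530, and LEA4-5, AT3G17520 and CML38 below, are named after their values were seen. These lists were chosen with results of these arrays known, and their counts are no independent evidence. The filter took the mean of all 6 arrays, so a gene high in 1 genotype could be tested through that genotype alone. Mean log2 values in wild-type arrays were 3.65 for M17, 4.62 for PAP85 and 4.97 for AtLEA4-1, under the filter floor of 5.02. Those of LEA4-5 (4.82) and AT3G17520 (4.62), also called higher, were under it too. In the low oxygen list CML38 had a mean of 4.68 in mutant arrays. The counts of both lists therefore depend in part on the filter. LEA18 was above that floor in wild-type arrays, at 5.19. Small heat shock protein genes can respond both to seed maturation and to low oxygen, and the part of either in the change of AT5G51440 was not tested.

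**Figure D3:**
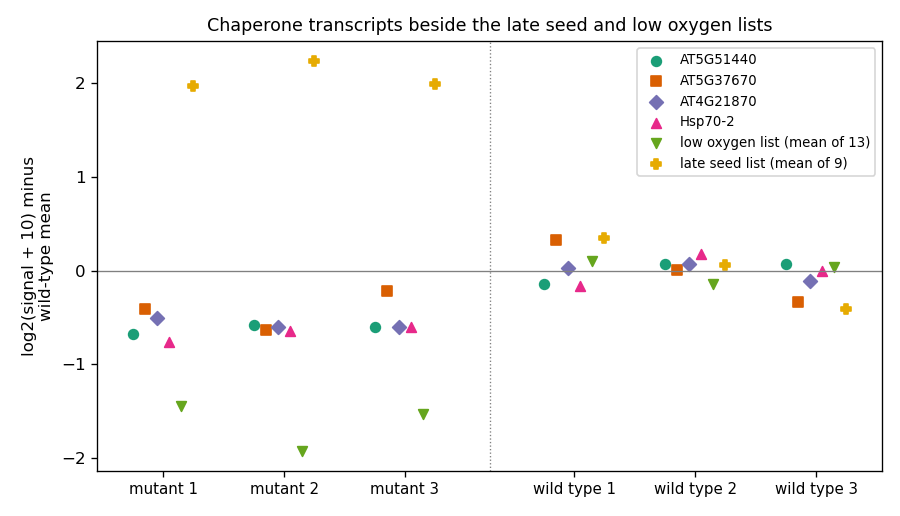
Log2(signal + 10) on each array, as the difference from the wild-type mean, for AT5G51440, AT5G37670, AT4G21870 and Hsp70-2, and for the mean of 13 low oxygen and 9 late seed genes. Mutant arrays are on the left. AT5G51440, AT5G37670, AT4G21870 and Hsp70-2 sit below 0 on every mutant array, between the late seed mean above and the low oxygen mean below. For AT5G37670 wild-type replicate 3 also sits below 0, under mutant replicate 3.

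Markers of dividing cells, of root hair cells and of oil mobilisation did not pass. HTR12, AUR1 and PRL, genes of dividing cells, were at 0.20, −0.06 and 0.04, the last at −0.05 after median centring. Their mean log2 value was 6.85 to 6.89 in mutant arrays and 6.73 to 6.92 in wild-type arrays. EXPA7 and EXPA18, expansin genes of root hair cells, were at −0.13 and 0.04, the second at −0.05 after median centring, and their mean was 8.08 to 8.33 in mutant arrays and 8.10 to 8.41 in wild-type arrays. SDP1, the oil body lipase gene, was at 0.14 and ICL at −0.04, or 0.05 under quantile normalization. Groups lay apart with the mutant higher for HTR12 (signals 36.7 to 44.0 in the mutant, 33.4 to 35.2 in the wild type). The same held, narrowly, for SDP1 (129.8 to 140.1 in the mutant, 113.8 to 129.2 in the wild type). Of all probe sets tested, 13.1% lay apart in that direction. Groups of the other markers named here overlapped. The 1 listed endosperm marker had no probe set naming it alone and was not analysed here.

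The genes whose values followed AT5G51440 most closely were chosen by Pearson correlation of log2(signal + 10) over the 6 arrays, among 7330 other tested probe sets naming 1 gene. All 6 arrays enter, so a gene that differs between the genotypes and varies little within them scores high, and the correlations are a description. The highest was rpoC2, the plastid gene of an RNA polymerase subunit (r = 0.995). Its signals were 94.3, 98.7 and 101.9 in the mutant, against 142.2, 183.2 and 181.6 in the wild type, with a log2 fold change of −0.72 (limma adjusted p = 0.0048). On both genes wild-type replicate 1 was the lowest wild-type array.

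TRXF2, a chloroplast thioredoxin gene, followed (r = 0.992), at −0.43 (limma adjusted p = 0.055). AT3G56360 (r = 0.988) changed most of the 5, with signals of 84.3, 97.9 and 101.8 in the mutant, against 230.1, 273.8 and 249.7 in the wild type (−1.32, adjusted p = 6.65e-06). AT3G13120 (r = 0.988) was at −0.33 (adjusted p = 0.0564). The fifth was Hsp70-2 (r = 0.987), the cytosolic HSP70 gene described above.

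For AT5G37670 the 5 nearest were AT3G06480 (r = 0.988), AT3G26450 (r = 0.984), AT1G06050 (r = 0.984), AT5G22340 (r = 0.983) and AT3G09970 (r = 0.983). None of them passed. Their log2 fold changes were −0.17, −0.46, −0.19, −0.23 and −0.22, with limma adjusted p-values from 0.141 to 0.61. AT3G26450 had signals of 145.9, 114.3 and 168.4 in the mutant, against 249.8, 189.6 and 163.8 in the wild type. This is the order of arrays seen for AT5G37670 within each genotype, with wild-type replicate 1 highest and mutant replicate 2 lowest. The lists of nearest genes of both members share no gene.

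**Figure D4:**
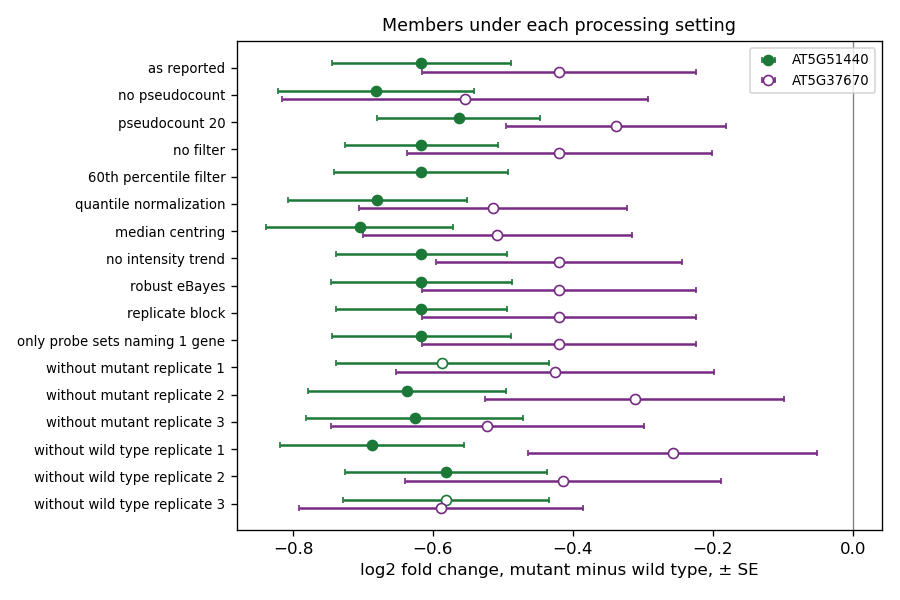
Log2 fold change with its SE for AT5G51440 and AT5G37670 as reported and under each alternative. Filled points passed an adjusted p under 0.05. AT5G51440 ranged from −0.70 to −0.56 and AT5G37670 from −0.59 to −0.26, and AT5G37670 was too dim to be tested under the 60th percentile filter.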

How the data were processed

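The authors deposited a MAS5 signal per probe set, an intensity on a linear scale, per the submitters' processing notes. The MAS5 version was not given in these sources. From the values, each array had a mean signal of 100.0 without the lowest and highest probe sets, which a common scaling factor per array would give. Groups and replicate numbers came from the sample titles. The 64 control probe sets were left out. Signals were transformed as log2(signal + 10), and the 13648 of 22746 probe sets whose mean log2 value reached the 40th percentile (5.02) were tested. The fit was mutant minus wild type over 6 arrays with limma 3.58.1 in R 4.3.3, eBayes with an intensity trend and Benjamini-Hochberg adjustment, two-sided, and it was tested on simulated data. An SE is limma's moderated one.

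Probe sets were named from GEO's platform annotation, with gene identifiers carried over to TAIR10.1, which matched 13436 of 13513 naming 1 gene. A locus is represented by its brightest probe set. Lists (185 genes) follow textbook families and are described by counts and medians. The text names both members, every small heat shock protein gene with a named probe set, up to 4 genes of each other list with the smallest p, and the 5 genes most correlated with each member. Members and lists were chosen with earlier results of these data known. The alternatives changed the pseudocount (0 or 20), the filter (none or the 60th percentile), the scaling (quantile or median centring), the variance model (no trend or robust), added a replicate block, fitted only probe sets naming 1 gene, or left out each array. Gene order in TAIR10.1 served to find the neighbours of the members. No coordinates are printed, as no genome build is named with the values, and no sequences were used here.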

Additional observations from a re-analysis of the deposited data

How the results depend on the processing

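Both members kept a negative log2 fold change under every alternative in which they were tested. AT5G51440 passed in 14 of 16 alternatives, and AT5G37670 in 0 of 15. With 1 array left out AT5G51440 ranged from −0.69 to −0.58, AT5G37670 from −0.59 to −0.26, the family median from −0.56 to −0.38 and the number of probe sets called from 258 to 705, against 516 as reported. That number was 228 without the filter, 325 without the intensity trend and 211 among probe sets naming 1 gene, where fewer were tested. The family median was −0.39 with a pseudocount of 20, −0.19 without the filter (10 genes) and −0.59 under the 60th percentile filter (2 genes). The count of small heat shock protein genes lower in the mutant was 1 in place of 2 when mutant replicate 1 or wild-type replicate 3 was left out. The replicate block gave AT5G51440 an adjusted p = 0.0102, AT5G37670 an adjusted p = 0.258 and 686 calls. The main fit did not take the replicate numbers as pairs. Same-numbered arrays correlated at 0.0371, 0.174 and 0.135 in their deviations from the group means, and every array correlated best with its own number. Whether same-numbered arrays shared a batch was not tested. Under that block, median centring, the 60th percentile filter or without wild-type replicate 1, TRXF2 and AT3G13120 passed, and TRXF2 also under quantile normalization.

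Signs turned only for genes near 0. Under quantile normalization AT1G23100 was −0.010, AT5G48570 −0.065, ICL 0.049 and PRL −0.0011, and after median centring AT1G23100 was −0.024, AT5G48570 −0.068, PRL −0.046 and EXPA18 −0.045. With 1 array left out Hop3 ranged from −0.24 to 0.20, AT1G23100 from −0.045 to 0.19, AT5G48570 from −0.11 to 0.12, ARLA1A from −0.20 to 0.097, NCLPP7 from −0.097 to 0.012, PRL from −0.080 to 0.17, EXPA18 from −0.043 to 0.18 and ICL from −0.14 to 0.015. The cause was not tested. Results for named genes other than the members were added after seeing the data. Signals of AT5G37670 were 20.3 to 49.0, and whether low signal set its spread was not tested.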
